A study of Mus musculus with 2 samples.

Results

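Dense clusters of distal accessible sites are stretches of DNA in which 8 or more sites outside promoters follow each other at gaps of 5 kb or less, and they were mapped here by DNase-seq in mouse spleen. Overlapping peaks from the longer deposited list of each library were merged into a site. Sites with a peak of both libraries were kept if they did not touch the 500 bp either side of any annotated transcription start site (TSS) of GENCODE M21. Of 146575 merged sites, 73150 held a peak of both libraries and 48823 of these were distal by that definition. Joining gave 33589 groups, single sites included, of which 131 held 8 or more, with 1310 sites in all or 2.68% of the distal sites. The members were thus chosen by where peaks were called and the clusters were ranked by summed peak signal, so their number, density and rank are described without a test.

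Both libraries came from whole spleens of male B6CASTF1/J mice aged 10 days, an F1 cross of C57BL/6 and CAST/EiJ, and the labels name no treatment. DNase I cuts DNA that is not wrapped in nucleosomes, and the peak signal, a depth-scaled density of cuts, is higher where more of the cells are open. The labels number the libraries as biological replicates 1 and 2 of 1 group, with separate biosamples but a shared donor identifier. They were taken as separate animals on that basis, and there was no contrast between conditions. Spleen is a mixture of cells, and fewer cells of a type and less open DNA per cell cannot be told apart. The depth is unknown, since no read totals were analysed, and signals compare between libraries only as ratios.

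Distal accessible sites include enhancers, which bind transcription factors and act on promoters at a distance. Genes that define a cell's identity are often flanked by many enhancers placed close together, known as super-enhancers or, at the globin genes, as a locus control region. The spleen of a young mouse still makes red cells and is also filling with B cells. Transfer RNA (tRNA) genes, transcribed by RNA polymerase III from short promoters that lie inside the gene, stand in tandem groups in the genome and also form short, strongly open sites.

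The sequences below are the central 150 bp of the strongest site, by mean signal, of 8 of the clusters described. Each is labelled with a gene within 50 kb of its cluster, which is not always the nearest gene or the gene at the site. The cluster labelled Cd79a lay 37780 bp from that gene and 2612 bp from Gm9844. The site labelled Gfi1b lay at the end of its cluster away from Gfi1b. All are from mm10, plus strand. Capitals mark matches, on either strand, to any of 19 short consensus sequences.
Zfpm1 (chr8:122281416-122281565): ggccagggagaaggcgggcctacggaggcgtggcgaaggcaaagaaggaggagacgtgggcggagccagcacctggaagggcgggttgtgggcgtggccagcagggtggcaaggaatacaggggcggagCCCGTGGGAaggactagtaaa
E2f2 (chr4:136178016-136178165): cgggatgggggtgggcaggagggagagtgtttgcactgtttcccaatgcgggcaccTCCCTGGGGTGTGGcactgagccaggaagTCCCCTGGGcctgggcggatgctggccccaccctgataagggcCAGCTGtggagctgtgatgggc
Kcnn4 (chr7:24364906-24365055): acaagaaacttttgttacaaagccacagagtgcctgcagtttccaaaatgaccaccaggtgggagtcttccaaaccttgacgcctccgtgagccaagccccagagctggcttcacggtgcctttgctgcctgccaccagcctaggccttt
Gfi1b (chr2:28592946-28593095): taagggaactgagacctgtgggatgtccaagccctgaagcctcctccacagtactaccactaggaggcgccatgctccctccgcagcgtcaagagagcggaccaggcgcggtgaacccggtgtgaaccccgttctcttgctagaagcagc
Ank1 (chr8:23028016-23028165): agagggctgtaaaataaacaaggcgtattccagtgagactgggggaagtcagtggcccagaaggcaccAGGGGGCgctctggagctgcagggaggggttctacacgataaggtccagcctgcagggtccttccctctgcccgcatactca
Slc4a1 (chr11:102348116-102348265): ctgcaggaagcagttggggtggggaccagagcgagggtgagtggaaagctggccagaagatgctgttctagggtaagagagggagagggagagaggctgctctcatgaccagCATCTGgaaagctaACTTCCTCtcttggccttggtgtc
Igha downstream (chr12:113222146-113222295): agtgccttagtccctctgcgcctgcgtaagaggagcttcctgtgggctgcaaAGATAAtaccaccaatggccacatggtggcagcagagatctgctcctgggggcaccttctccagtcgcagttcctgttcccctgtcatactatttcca
Cd79a (chr7:24853026-24853175): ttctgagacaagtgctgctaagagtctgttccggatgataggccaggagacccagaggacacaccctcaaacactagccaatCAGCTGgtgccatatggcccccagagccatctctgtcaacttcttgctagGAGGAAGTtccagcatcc
The E2f2 site held the E-box CAGCTG, the Kruppel-like factor consensus CCACACCC on the minus strand, and CCCNNGGGA, the consensus of the B cell factor EBF1, at 2 places on the minus strand. The first of those overlaps the Kruppel-like match. The Zfpm1 site held CCCNNGGGA alone, and the Ank1 site AGGGGGC, part of the motif of the insulator protein CTCF. The site downstream of Igha held AGATAA, a form of the consensus of GATA factors. The Slc4a1 site held CAGATG, an E-box of the type bound with TAL1, and GAGGAAGT, the consensus of the myeloid and B cell factor PU.1, both on the minus strand. The Cd79a site held CAGCTG and GAGGAAGT. The Kcnn4 and Gfi1b windows held none of the 19 consensuses. A match is a stretch of letters and says nothing about binding. Each consensus was searched only as listed, so other forms of the same motifs, such as those of GATA factors and CTCF, are left unmarked.

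Of the clusters in the top 12 that lay at tRNA genes, 3 are represented by their strongest tRNA gene with a full B box, an internal promoter element read by the polymerase III factor TFIIIC. The tRNA genes are from the RefSeq annotation of the same assembly and each is printed 5′ to 3′ on its own strand, with the B box consensus GTTCGANNC in capitals.
n-THgtg8, tRNA-His (chr3:96500366-96500437, minus strand): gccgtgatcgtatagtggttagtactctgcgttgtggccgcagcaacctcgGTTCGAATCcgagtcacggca
n-TYgta7, tRNA-Tyr (chr13:23432990-23433077, minus strand): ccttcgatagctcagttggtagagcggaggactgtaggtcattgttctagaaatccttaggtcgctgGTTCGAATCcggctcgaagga
n-TSgct3, tRNA-Ser (chr11:69063042-69063123, minus strand): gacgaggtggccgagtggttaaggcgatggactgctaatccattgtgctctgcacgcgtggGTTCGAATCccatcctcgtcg

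The clusters varied widely in size and signal. They held 8 to 23 sites (median 9) over 4040 to 30101 bp (median 11860 bp), and together spanned 1638 kb or 0.0601% of the chromosome length. The sum of the sites' signals in a cluster ranged from 3.84 to 95.4 in replicate 1 (median 20.9) and from 3.13 to 40.3 in replicate 2 (median 12.3). The strongest site of a cluster held a median of 31.8% of its signal (10.3 to 73.1%). The clusters held 3.65% of all distal signal in replicate 1 and 3.79% in replicate 2, more than their 2.68% of sites. All sites lay in introns in 37 clusters and all were intergenic in 36. A protein-coding gene enclosed 39 clusters whole, and 7 clusters had no protein-coding gene within 50 kb. Promoter sites, which the rule leaves out, lay between the members of 54 clusters.

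The order of the clusters was similar in both spleens. The sums had a Spearman coefficient of 0.936 over 131 clusters, as a description of 2 libraries that share the site boundaries. Replicate 1 had the higher sum in all but 4 clusters, with a median log2 ratio of replicate 1 to replicate 2 of 0.72 (-0.08 to 1.43). Ranking by replicate 1 alone, by replicate 2 alone or by all peaks kept 11 of the 12 strongest clusters in each case. These rankings use the same clusters and the same signals as the score, so they are not a separate check.

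**Figure D1:**
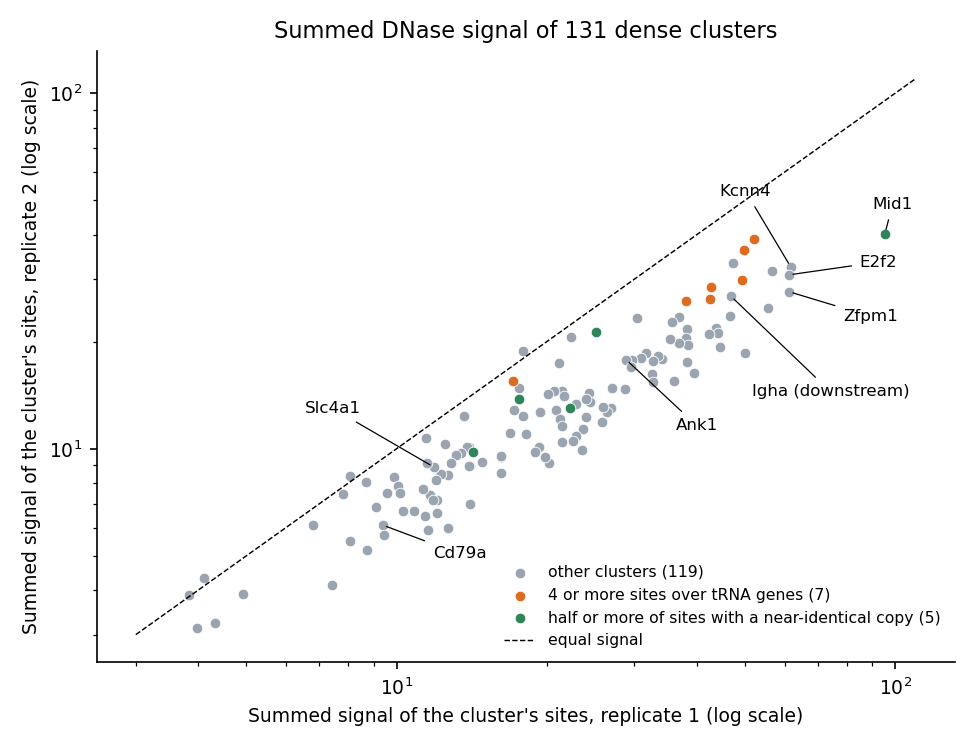
Summed signal of each of the 131 clusters in replicate 1 (x axis) and replicate 2 (y axis), both on log scales, with 1 point per cluster, coloured by the kind of site it holds and with a dashed line at equal signal. Nearly all points lie below the line, and the 7 clusters at tRNA genes lie nearer to it than Kcnn4, E2f2 and Zfpm1.

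The strongest groups just outside the rule had signals like those of the strongest clusters just inside it. The strongest clusters of 8 sites lay near Abt1 (49.3 in replicate 1 and 29.9 in replicate 2), Yy1 (50.03 and 18.5) and Gm5737 (36.8 and 23.4). Among the 91 groups of 7 sites, just outside, the strongest lay at Ptma (67.8 and 35.6), Tex44 (67.5 and 27.3) and Cirbp (55.2 and 25.3). All 3 of these were above the 8-site clusters in replicate 1.

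Of all clusters, the strongest with no copied site and no site over a tRNA gene was at Kcnn4. That gene encodes a calcium-activated potassium channel of red cells and lymphocytes. The Kcnn4 cluster had 17 sites over 30101 bp and sums of 61.7 in replicate 1 and 32.5 in replicate 2. Its sites ranged from 0.840 to 13.3 in replicate 1 (median 2.34) and from 0.469 to 7.96 in replicate 2 (median 1.25), and every site was higher in replicate 1. The strongest sites did not coincide with the middle of the cluster: 12.7 and 7.96 at the intergenic site printed above, and 13.3 and 4.26 at a site further along.

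At E2f2, an E2F family transcription factor of the cell cycle, 9 sites lay inside introns of the gene over 6420 bp, with sums of 61.2 and 30.8. Strong and weak sites were interspersed. In order along the chromosome, the replicate 1 signals were 0.911, 12.9, 0.945, 1.05, 7.76, 19.3, 1.29, 0.874 and 16.2. In replicate 2 the same sites had 0.837, 5.49, 0.854, 0.737, 3.70, 8.20, 1.18, 0.749 and 9.10. The 4 sites above 5 in replicate 1 were also the 4 highest in replicate 2.

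At Zfpm1, which encodes the GATA1 cofactor FOG1, 9 sites over 13520 bp had sums of 61.2 and 27.7, and 1 site held 61.1% of the signal. All 9 were intronic in the overlapping gene Gm20388, which encloses the cluster. The strongest site and its weaker neighbour before it lay outside the span of Zfpm1 itself. The replicate 1 signals in order were 2.85, 39.04, 1.45, 2.97, 1.89, 2.99, 5.21, 2.00 and 2.84, and those of replicate 2 were 1.61, 15.3, 0.837, 1.36, 1.54, 1.06, 2.99, 0.871 and 2.13. The site at 39.04 and 15.3 lay 651 bp from a TSS, just outside the promoter window. With a promoter window of 1000 bp it would not count as distal.

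At Junb, an AP-1 transcription factor gene, and Prdx2, which encodes a peroxidase abundant in red cells, 13 sites had sums of 56.6 and 31.7. The strongest, at 17.9 and 8.60, lay 613 bp from a TSS, at the end of the cluster next to Hook2, a gene 522 bp away. A cluster of 15 intergenic sites (55.6 and 24.9) lay 32270 bp from Atf7ip, a partner of histone methylation enzymes. Another of 10 sites (47.3 and 33.3) lay at H2-T24, a gene of the MHC class I family, where 1 site reached 22.2 and 16.6.

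Red cell membrane genes showed different forms of clustering. At Ank1, which encodes ankyrin of the red cell membrane skeleton, 8 intronic sites had sums of 28.9 and 17.8. Their replicate 1 signals in order were 13.3, 3.73, 6.63, 0.878, 1.41, 1.10, 1.04 and 0.716, and those of replicate 2 were 7.79, 2.08, 3.08, 0.804, 1.80, 1.13, 0.557 and 0.578. The 3 sites at 1 end of the cluster were the strongest in both libraries. At Slc4a1, which encodes the anion exchanger band 3 of the red cell membrane, 16 weak sites lay across the 3′ part of the gene and ranked only 100 of 131, with sums of 11.9 and 8.89. The highest of these sites reached 2.13 in replicate 1 and 1.67 in replicate 2 and the medians were 0.630 and 0.482.

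The Slc4a1 sites lay in introns (7), exons (7) and intergenic DNA (2), with a median gap of 80 bp. Stretches that the authors list below a false discovery rate (FDR) of 0.05 for the cut rate covered 90.9% of the cluster in replicate 1 and 88.0% in replicate 2. Over all clusters the cover was 43.3% and 44.2%, against 1.49% and 1.14% of the genome. The stretches and the peaks come from the same cuts, so cover above that of the genome was built into the rule. The cluster at E2f2 (86.7% and 94.5%), that at Rbm38, an RNA-binding protein of splicing in red cells (93.6% and 89.0%), and 1 at Frmd8 (85.8% and 91.1%) were the only others with 80% or more in both libraries. Downstream of Igha the cover was 31.2% and 26.1%, and at Cd79a 25.3% and 27.2%. Both were below the share over all clusters.

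**Figure D2:**
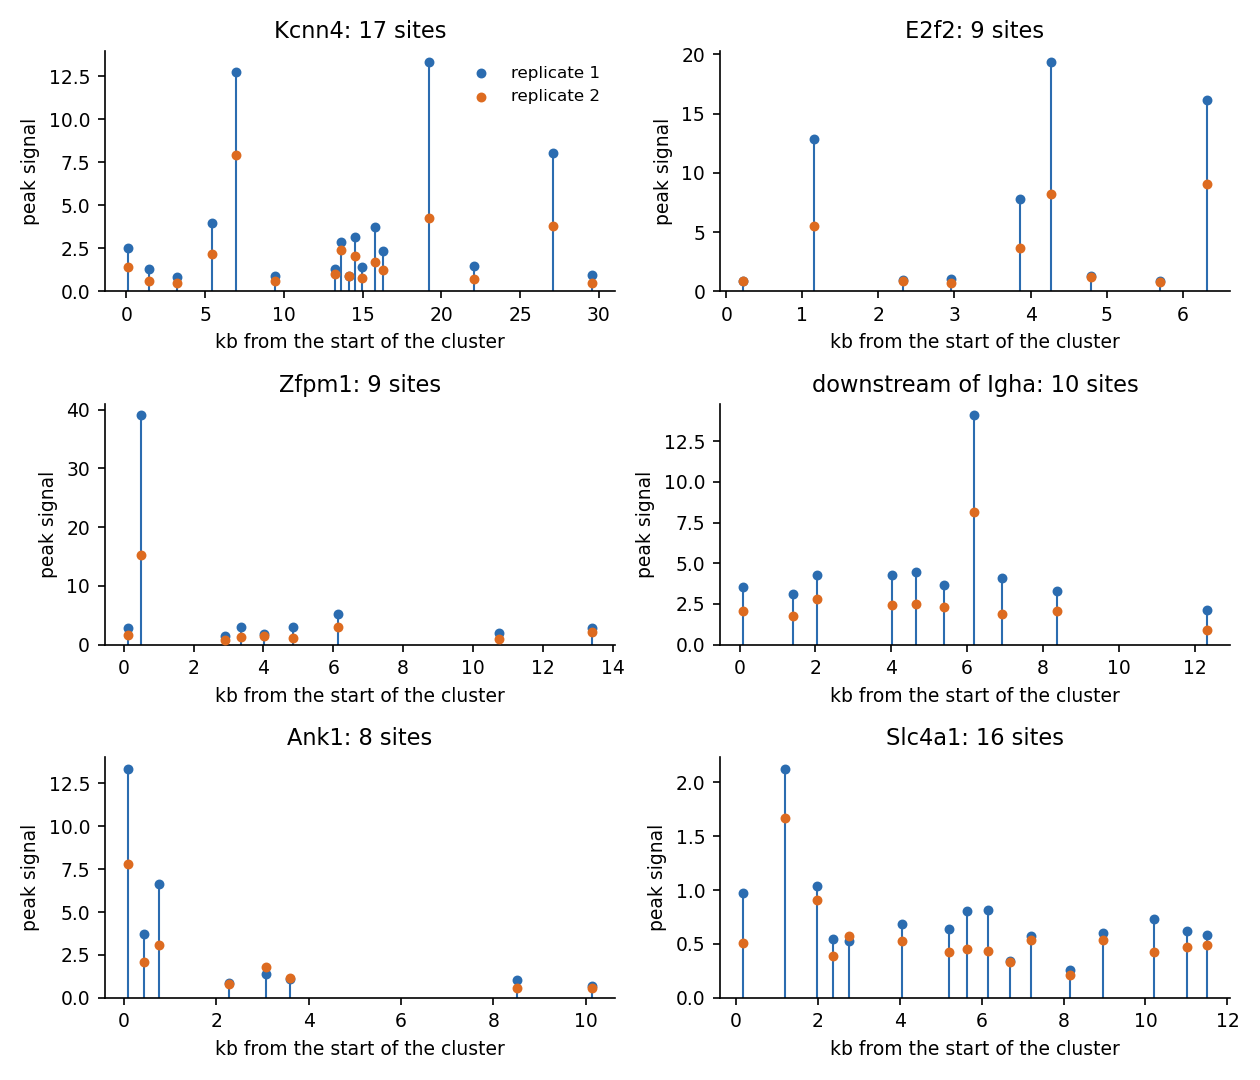
Peak signal of each site (y axis, its own linear scale in each panel) against distance in kb from the start of the cluster (x axis) in 6 clusters, with replicate 1 in blue and replicate 2 in orange. Single sites stand out at Zfpm1 and downstream of Igha, strong and weak sites are interspersed at E2f2, and the 16 Slc4a1 sites are low and evenly spread.

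**Figure D3:**
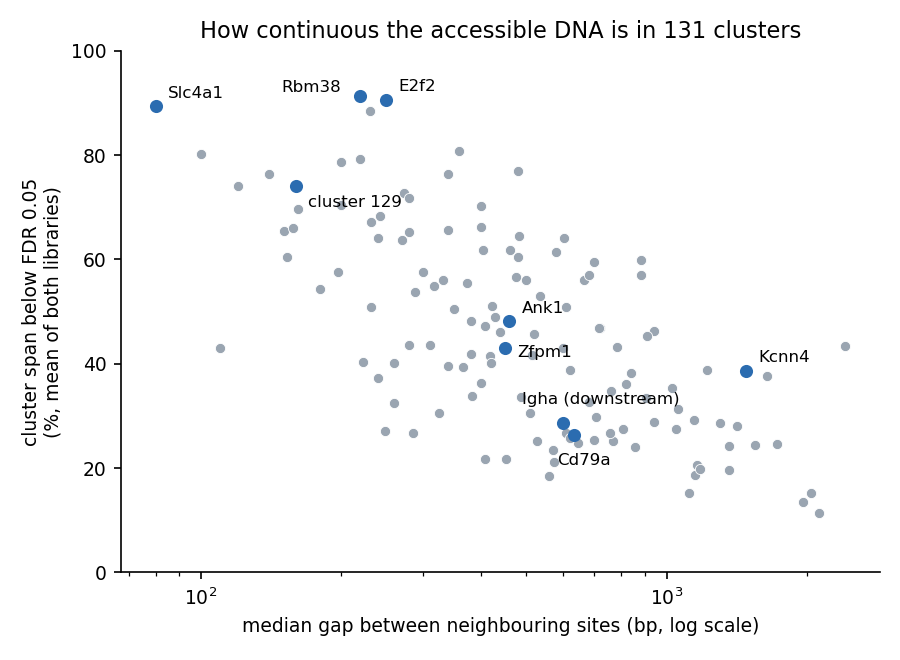
Share of each cluster's span listed below an FDR of 0.05, as the mean of both libraries (y axis, %), against the median gap between neighbouring sites (x axis, bp, log scale), with 1 point per cluster and 9 clusters in blue and named. Slc4a1, Rbm38 and E2f2 lie at the top, and Cd79a and the cluster downstream of Igha lie near the bottom.

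Some neighbouring sites lay very close together. Of 1179 gaps between neighbouring members, with a median of 460 bp, 178 (15.1%) were 100 bp or less. When sites within 150 bp of each other were fused first, 72 of the 131 clusters still held 8 or more. Slc4a1 then had 6, Zfpm1 6, Ank1 7 and Cd79a 6, and no longer met the rule. Kcnn4 had 13, Rbm38 13, E2f2 8, Gfi1b 8 and the cluster downstream of Igha 10, all at or above 8.

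Other clusters lay near Gfi1b, Foxo3, Bcl6, Mpo and Rbm38, at ranks 63, 20, 46, 26 and 39. Gfi1b, a repressor needed for red cells and platelets, lay 2165 bp from a cluster of 8 sites with sums of 20.9 and 12.9. Its strongest sites had 6.85 and 5.13, and 6.97 and 2.80. The other 6 ranged from 0.728 to 2.86 in replicate 1. Foxo3, a transcription factor active in maturing red cells, had 12 sites (42.4 and 21.1), the strongest of them 985 bp from a TSS (19.1 and 6.71). Bcl6, a repressor of germinal centre B cells, had 8 (26.9 and 13.0). The neutrophil peroxidase gene Mpo lay 33680 bp from a cluster of 12 sites (36.9 and 19.9), nearer to Tspoap1. Rbm38 had 18 sites (29.6 and 17.8).

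The clusters near Igha and Cd79a lay outside these B cell genes. The cluster at rank 11, with sums of 46.9 and 26.9, lay 26309 bp downstream of Igha, the last constant gene of the immunoglobulin heavy chain locus, on the side where the regulatory region of that locus is known to lie. Its 10 sites were intergenic. In replicate 1 they had 3.53, 3.08, 4.27, 4.25, 4.47, 3.66, 14.1, 4.11, 3.30 and 2.12 in order along the chromosome, and in replicate 2 they had 2.05, 1.73, 2.82, 2.45, 2.52, 2.32, 8.15, 1.88, 2.06 and 0.875. The site printed above was the highest in both libraries, and the other 9 lay between 2.12 and 4.47 in replicate 1. Igha is not a protein-coding entry of the annotation, so the gene rule names Tmem121 and Tedc1, and Igha was added after the position was seen. Cd79a, a signalling chain of the B cell receptor, lay 37780 bp from a weak cluster of 9 sites (9.38 and 6.10).

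Few genes of the cell type lists lay near a cluster. Within 50 kb of a cluster lay 373 of 21938 protein-coding genes (1.7%). Of 31 red cell genes these were 2, Ank1 and Slc4a1. Of 38 lineage transcription factors they were 5, Bcl6, Foxo3, Gfi1b, Ikzf3 and Zfpm1. Of 21 B cell genes Cd79a alone was near, of 17 neutrophil genes Mpo and of 14 progenitor genes Gfi1b. None was near among 12 heme synthesis, 20 T cell, 12 natural killer, 20 macrophage, 11 dendritic, 14 megakaryocyte, 17 stroma, 12 endothelium, 12 liver, 12 neuron and 12 muscle genes. Of 12 proliferation genes only Aurkb lay near, beside tRNA genes, and of 11 pancreas genes Cel lay beside the same cluster as Gfi1b.

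Some loci fell just short of 8 sites and others well short. The largest joined group within 50 kb held 7 sites at Car2, Alad, Fech and Pax5 and 6 at Hbb-bs. It held 5 at Hba-a1 and Tal1, 4 at Klf1 and Tfrc and 3 at Gata1. With clusters of 6 or more, 8 of 31 red cell genes lay near a cluster, and so did 1046 protein-coding genes in place of 373.

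The counts of list genes differed when clusters were built from 1 library alone. The number of distal sites differed too, at 94726 with replicate 1 alone and 66196 with replicate 2 alone, against 48823 with both. Clusters built from the peaks of replicate 2 alone numbered 411 and lay near 4.96% of protein-coding genes, and near 14 of 31 red cell genes (45.2%) and 5 of 12 heme synthesis genes (41.7%). The 14 included Hbb-bs, Hbb-bt, Hba-a1, Hba-a2, Car2, Rhd and Sptb, and the 5 included Alas2, the first enzyme of heme synthesis in red cells. Clusters of replicate 1 alone numbered 1187 and lay near 14.3% of protein-coding genes, yet near 10 red cell genes (32.3%), none of them a beta-globin gene, and 3 heme synthesis genes (25%). For lineage transcription factors the counts were 17 of 38 (44.7%) in replicate 1 and 8 (21.1%) in replicate 2, to be read against the same 14.3% and 4.96% of protein-coding genes. With 1 library each this has no replicate check, and what set it was not tested.

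tRNA genes made up several of the strongest clusters, so the label distal does not hold for those sites. Of 1310 members, 39 (2.98%) overlapped a RefSeq tRNA gene, against 141 of 47513 other distal sites (0.297%) and 0.369% of all distal sites. This overlap was looked for after the first clusters were seen. The 39 sites lay in 8 clusters, of which 7 held 4 or more such sites, at ranks 4, 7, 10, 12, 14, 18 and 69. They covered 41 of the 403 tRNA genes and tRNAs for 19 amino acids, with 5 genes for lysine and 4 for leucine. These genes have their own promoters, which the TSS list used here does not hold.

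The tRNA sites were stronger than the other members. Their median signal was 5.05 in replicate 1 and 3.64 in replicate 2, against 1.05 and 0.775 in the 1271 members without a tRNA gene. The strongest were n-TYgta7 for tyrosine (14.8 and 9.88), n-THgtg8 for histidine (13.7 and 11.1) and n-TSgct3 for serine (13.2 and 8.99), whose sequences are printed above, and n-TLtag1 for leucine (13.2 and 11.9) in a cluster with no other tRNA site. Not every tRNA site was strong: that of a phenylalanine gene, n-TFgaa2, was at 0.334 and 0.423, below the medians of members without a tRNA gene. The B box consensus GTTCGANNC, searched on both strands, was in the windows of 24 of the 39 sites and in 0.708% of the members without a tRNA gene. Per cluster the 7 had median sums of 42.7 and 28.5 and a log2 ratio of 0.55 (0.14 to 0.72), against 20.1 and 11.6 and a ratio of 0.75 in the 119 clusters that were neither at tRNA genes nor mostly copied. Without the tRNA sites 124 clusters were left.

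**Figure D4:**
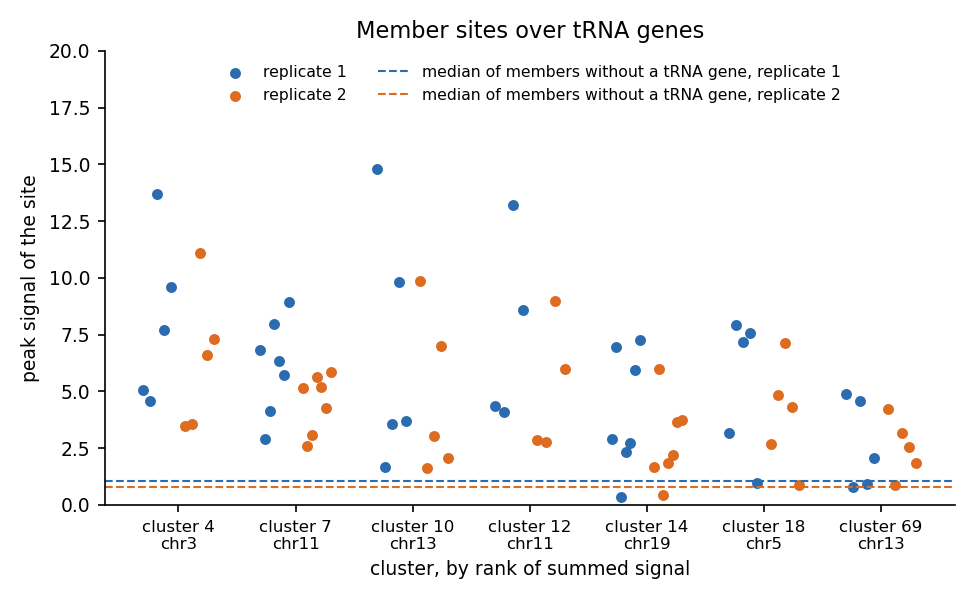
Peak signal (y axis, linear) of every member site over a tRNA gene in the 7 clusters with 4 or more of them (x axis, by rank and chromosome), with replicate 1 in blue and replicate 2 in orange and dashed lines at the median of members without a tRNA gene. Most points lie above the lines of both libraries (1.05 and 0.775), and each cluster holds sites of very different strength.

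Copied sequence made up others, including the strongest cluster. A near-identical copy was a second alignment of the 150 bp window at 95% identity or more over at least 120 bp, and 71 members (5.42%) had one or could not be placed, against 1.62% of other distal sites and 1.72% of all. In 5 clusters 50% or more of the sites were copied, 59 sites in all. Signal there is uncertain because reads of near-identical copies may be hard to place, which was not examined. The strongest of all, at Mid1 on the X chromosome (22 sites, 95.4 and 40.3), had 21 copied sites. Mid1 spans the edge of the pseudoautosomal region shared by X and Y. There 1 site had 53.2 in replicate 1 and 12.9 in replicate 2, while 13 of the 22 sites were higher in replicate 2. A second cluster beside it had 8 of 8 sites copied (25.1 and 21.4). On the Y chromosome 20 of the 37 distal sites formed a single cluster (17.6 and 13.8), with 15 copied. The cluster with the most sites, 23, lay near the start of chromosome 4 and was among the weakest (3.84 and 3.87), with 3 copied.

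Members were wider and stronger than other distal sites, which is a description, since peak calls chose them. The median signal was 1.09 in replicate 1 and 0.798 in replicate 2, against 0.930 and 0.590 in the other 47513 sites. The median width was 269.5 bp against 200 bp. The median log2 ratio of replicate 1 to replicate 2 was 0.51 (SD 0.58 over sites) against 0.71 (SD 0.57), and 18.6% of members against 12.05% of other sites were stronger in replicate 2. The strongest 20% of distal sites by mean signal held 27.7% of the members and the weakest 20% held 13.1%. Introns held 47.4% of members against 51.4%, exons 6.79% against 8.21% and intergenic DNA 45.8% against 40.3%. The median distance to a TSS was 6519 bp against 7305 bp, and the median GC content 53.3% against 52.0%.

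Footprints, short stretches inside a peak that are protected from cutting, were listed more often per member, at 3.63 in replicate 1 and 3.27 in replicate 2 against 3.22 and 2.70. With footprints of 10 bp or wider alone the means were 2.17 against 2.16 in replicate 1 and 1.61 against 1.51 in replicate 2. Among the weakest 20% of distal sites members had fewer in replicate 1 (1.87 against 2.10) and more in replicate 2 (1.74 against 1.54). The next 20% went the same ways, at 2.65 against 2.80 and 2.46 against 2.17. Among the strongest 20% members had more in both, at 4.66 against 3.82 and 4.58 against 3.88. The members were also wider, as given above. Members with no footprint were more common: 91.8% of members held one in replicate 1 against 96.2% of other sites, and 88.1% against 91.8% in replicate 2.

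The GATA form AGATAA was about as common in members as in other distal sites, and AGGGGGC, part of the CTCF motif, was rarer. Other forms of the GATA and CTCF motifs were not searched, so these shares are of the listed strings only. AGATAA was in 108 members (8.24%) against 7.75% of other distal sites and 7.76% of all, and 76 of the 131 clusters held at least 1. It was in 11.02% of the members in the strongest 20% of distal sites against 6.83% of other sites there, and in 6.395% against 7.39% in the weakest 20%. CCACACCC of Kruppel-like factors was in 4.35% of members (2.96% of all distal sites), CCGGAAG of ETS factors in 2.52% (1.84%), and the E-box CAGCTG in 14.6% (13.5%). Lower than over all distal sites were CAGATG (12.1%, 14.7%), GAGGAAGT of PU.1 (2.75%, 3.61%), TGTGGTT of RUNX factors (3.89%, 5.45%), GAAANNGAA of interferon regulatory factors (2.82%, 4.28%) and AGGGGGC of CTCF (6.03%, 10.6%). Each share is of windows of 150 bp with a match on either strand, CAGATG and CAGCTG being counted separately. Members of a cluster share a locus and are not replicates, so no test was made.

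**Figure D5:**
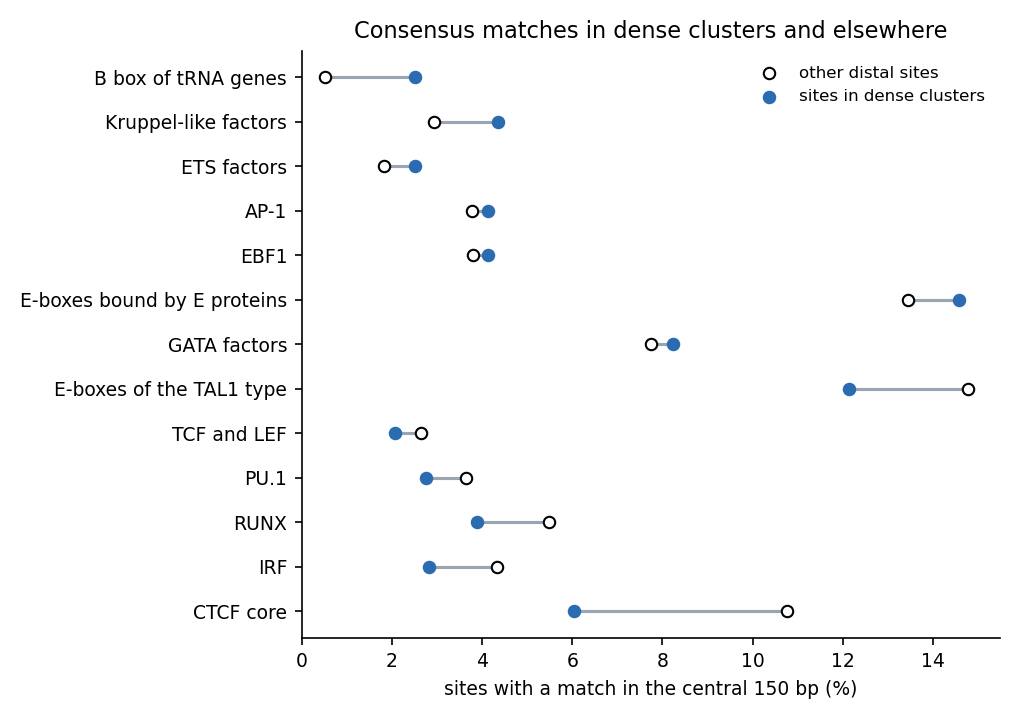
Share of sites with a match in the central 150 bp (x axis, %) for the 13 consensuses found in 20 or more members, listed by name and ordered by the ratio of the shares, in members (blue) and in other distal sites (open circles). The row named CTCF core (AGGGGGC) lies at 6.03% against 10.8%, that named GATA factors (AGATAA) at 8.24% against 7.75%, and the B box of tRNA genes at 2.52% against 0.516%.

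Some members coincide with elements tested before. RefSeq lists functional elements from reporter assays, and 25 members (1.91%) overlapped one, against 0.635% of all distal sites, a comparison added after the data were seen. They fell on 10 elements in 9 clusters. Of these, 3 are recorded as erythroid enhancers: Btg2R3 and Btg2R9 at Btg2, an antiproliferative gene with clusters at ranks 35 and 61, and Zfpm1R2 inside the Zfpm1 cluster. The Btg2R9 site had 14.2 in replicate 1 and 4.57 in replicate 2, the Btg2R3 site 2.51 and 2.34, and the 2 sites over Zfpm1R2 2.97 and 1.36, and 1.89 and 1.54. The strongest Zfpm1 site is thus not the recorded element. Another 4 elements, under 11 members, are recorded as enhancers in embryonic heart, at Rbm38, at Lipc and at 2 clusters in Gse1, a gene that holds 3 clusters in all. The Lipc site was the strongest of them, at 27.9 and 9.74. The other 3 elements, under 10 members, are recorded as enhancers in embryonic neural tissue or branchial arch. One of them covers 4 sites of the Btg2 cluster at rank 35, the strongest at 9.79 and 4.83, above the Btg2R3 site in both libraries. Elements were chosen for testing by their own studies, so the share depends on what was tested.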

How the data were processed

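DNase-seq peaks, footprints and cut-rate false discovery rates of 2 spleen libraries were used as deposited on mm10. Per the deposited README files, each file derives from the alignments of its own library. No aligner, caller or version is named in the labels or README files. Peak signal, as deposited by the authors, is a depth-scaled density. The FDR p-values, as deposited by the authors, are listed per stretch and lie below 0.05. The score column of the footprints, as deposited, is the constant 0.01, so only positions were used. Merging, joining (5 kb, 8 sites) and overlaps (1 bp or more) were computed with pandas 2.3.3 and bedtools 2.31.1, and copies searched with minimap2 2.31. Each site took its strongest peak per library, and these were summed per cluster. Joining was tested on simulated intervals. Genes came from GENCODE M21, and tRNA genes, elements and sequence from RefSeq GRCm38.p6.

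The rule for named clusters took the 12 strongest, the 5 with the most sites, the 3 densest of the rest, and those nearest to up to 3 genes of each of 19 lists, each with its nearest genes and with the 3 strongest groups on either side of the threshold. Frmd8, Btg2, Gse1, Lipc, Igha, the tRNA genes and the loci that fell short were added after their values were seen. The members and lists were chosen with earlier results of these data known. With 2 libraries of 1 group no test between conditions was possible. Alternatives were other gaps, sizes, promoter windows, peak lists and gene windows, each library alone, no copied sites, autosomes and, added after seeing the data, fused sites and no tRNA sites. The result of a gene list and a tRNA sequence are not reported here.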

Additional observations from a re-analysis of the deposited data

How the results depend on the processing

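The number of clusters moved with most steps of the rule. Other ways of summing the signal kept 11 or 12 of the 12 strongest, but they re-rank the same clusters from the same signals. After fusing sites within 150 bp, 8 of the 12 strongest still held 8 or more sites. Without tRNA sites, the clusters at ranks 4, 7, 10 and 12 kept 5, 2, 3 and 5 sites, below the 8 of the rule. From 131 clusters with 1310 sites (2.68% of distal sites) and 373 protein-coding genes near, joining at 2.5 kb gave 69 clusters, 673 sites, 1.38% and 162 genes, and at 10 kb 302, 3130, 6.41% and 1002. Clusters of 6 or more gave 385, 2925, 5.99% and 1046, and of 10 or more 54, 665, 1.36% and 179. A promoter window of 100 bp gave 211, 2148, 3.85% and 748. The shorter peak lists gave 41, 427, 1.35% and 134, peaks at or above the median signal 48, 440, 1.75% and 140, and fusing sites within 150 bp 72, 689, 1.47% and 230. The share of distal sites was 2.31% with a window of 1000 bp, 3.31% with protein-coding TSSs only and 2.54% without copied sites. Genes within 25 kb numbered 231 and within 100 kb 625. With the peaks of a single library the ranges were 411 to 1187 clusters, 4770 to 17651 sites, 7.21 to 18.6% and 1088 to 3148 genes. Over all these settings, red cell genes near a cluster ranged from 0 to 14 and B cell genes from 0 to 4. AGATAA was in 6.77% of members of clusters of 10 or more, in 5.88% of 100 bp windows and 16.0% of whole sites, and in 5.61 to 9.75% with 1 library. No paired analysis was possible because the series has 1 group. The depth behind each signal is unknown, so weak sites missing in 1 library cannot be called closed there.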
